A study of Mus musculus with 5 samples.

Results

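The cells described here are fibroblasts of the mouse heart that carry the transcript of Pi16, a secreted protease inhibitor whose expression marks fibroblasts lying in the outer sheath of vessels. A cell was counted when its deposited value, the natural log of 1 plus its UMIs per 10000, was above 0 for Pdgfra and Col1a1, at least 3 for Dcn and at least 1 for Pi16, and 0 for Cdh5 and Ptprc. These cut-offs correspond to 19.1 Dcn UMIs and 1.72 Pi16 UMIs per 10000. The rule found 561 of 10961 cells. The members were thus selected on the measured levels of these 6 genes, which are given below as descriptions only. The comparison group was the 225 fibroblasts that met the same gate with a Pi16 value of 0, always of the same library. Another 181 gated fibroblasts had Pi16 values between 0 and 1 and belong to neither group.

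The study prepared droplet-based 3-prime single-cell libraries from cardiac interstitial cells, freed by collagenase II, depleted of cardiomyocytes and sorted on surface cKit, a receptor tyrosine kinase used to mark progenitor cells, and DDR2, a collagen receptor used to mark fibroblasts. DDR2 alone (cKit-/DDR2+) gave 1 library and cKit alone (cKit+/DDR2-) gave replicates 1 and 2. Double-positive cells were split into a CD45- and a CD45+ library (cKit+/DDR2+/CD45- and cKit+/DDR2+/CD45+). CD45 is the surface protein of blood-derived cells that Ptprc encodes. No treatment or genotype separated the libraries, and strain, age and sex are not given in the sources used here. Members were found in numbers of 456 (cKit-/DDR2+), 1 and 74 (cKit+/DDR2- replicates 1 and 2), 22 (CD45-) and 8 (CD45+).

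Adventitial fibroblasts sit around arteries and larger veins, apart from the interstitial fibroblasts that lie between cardiomyocytes. In many mouse organs such cells share a set of genes with Pi16, among them Cd248 (endosialin, a surface glycoprotein), Dpp4 (a surface dipeptidase), Sema3c (a secreted guidance cue) and Mfap5 (a microfibril glycoprotein). They are known as a stromal population from which other fibroblasts can arise, and as makers of elastic and hyaluronan-rich matrix.

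Several properties of the libraries precede any comparison. cKit+/DDR2- replicate 1 and the CD45+ library shared 190 cell barcodes, against 1 to 3 for every other pair of libraries. Cells with the same barcode in that pair were more alike (median Pearson r of 0.538 across genes) than cells paired with a neighbouring barcode (0.400). The only member of cKit+/DDR2- replicate 1 was among them, and no member of the CD45+ library was. The 2 libraries that hold most members differed in sex-linked transcripts: the members of the cKit-/DDR2+ library had 0 Xist UMIs and 80.3 CPM (UMIs of the gene over all UMIs of the group, scaled to a common total) of Ddx3y, and those of cKit+/DDR2- replicate 2 had 662 CPM of Xist and 0 Ddx3y UMIs. Sex-linked type, sort and library cannot be told apart for these cells. A single transcript, Gm42418, made up 79109 CPM in members of cKit+/DDR2- replicate 2 and 7751 CPM in those of the cKit-/DDR2+ library. Members were deeper than the Pi16 = 0 cells of their library, with a median of 14850.5 against 12287.5 UMIs per cell (cKit-/DDR2+), 11853 against 9374 (cKit+/DDR2- replicate 2), 14620 against 11037 (CD45-) and 14655 against 2888 (CD45+).

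The name adventitial was met unevenly by the markers. At the depth of the cKit-/DDR2+ library, Mfap5 was seen in 99.1% of members, Cd248 in 64.3%, Sema3c in 44.3% and Dpp4 in 14.3%. The Pi16 = 0 cells of that library gave 85.2%, 13.7%, 11.5% and 2.2%, in the same order. Cdh5-positive cells without Pdgfra, which stand for background here at a median of 5284 UMIs, gave 10.7%, 2.66%, 0.826% and 1.83%. All 4 markers were seen together in 46 of 456 members (10.1%) and in 0 of 182 Pi16 = 0 cells, and 2 members had none of them. With every cell thinned to 3000 UMIs, Cd248 was seen in 34.6% of members and 3.33% of Pi16 = 0 cells, Sema3c in 16.9% and 2.22%, and Dpp4 in 5.92% and 1.11%, the last close to the 1.23% of the Cdh5-positive cells. Dpp4 was not particular to fibroblasts in cKit+/DDR2- replicate 2, where 50.2% of the Cdh5-positive cells had it against 14.9% of members. The members also kept Col15a1, a collagen of interstitial fibroblasts, in 97.8% of cells against 95.6% of the Pi16 = 0 cells. They are therefore called Pi16-positive fibroblasts from here on.

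Pi16-positive fibroblasts made up 20% of all cells in the cKit-/DDR2+ library (95% exact binomial interval 18.4 to 21.7), 1.66% in the CD45- library (1.04 to 2.5) and 0.205% in the CD45+ library (0.0886 to 0.404). The cKit+/DDR2- sort has 2 libraries, at 2.45% in replicate 2 (1.93 to 3.07) and 0.229% in replicate 1 (1 of 436 cells, 0.00581 to 1.27). The intervals of these replicates do not overlap, so libraries of 1 sort differed beyond counting error, and the only member of replicate 1 is a cell whose barcode the CD45+ library shares. As a share of the gated fibroblasts the libraries with more than 1 member lay close to each other. The share was 58.4% (54.8 to 61.9) in cKit-/DDR2+, 56.1% (47.2 to 64.7) in cKit+/DDR2- replicate 2, 61.1% (43.5 to 76.9) in CD45- and 47.1% (23.0 to 72.2) in CD45+. These 4 intervals overlap, and they cover counting error only, with 1 library behind each. A difference in the Pi16-positive fraction between sorts was not detectable at this cut-off and depth. At a Pi16 value of 2 or more the fractions lay further apart, at 32.5%, 21.2%, 30.6% and 17.6% in the same order. That difference was not tested. Thinned to 3000 UMIs, the fractions of gated fibroblasts were 56.2% and 49.4% in the libraries with most members, and the shares of all cells were 14.3% and 1.5%.

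**Figure D1:**
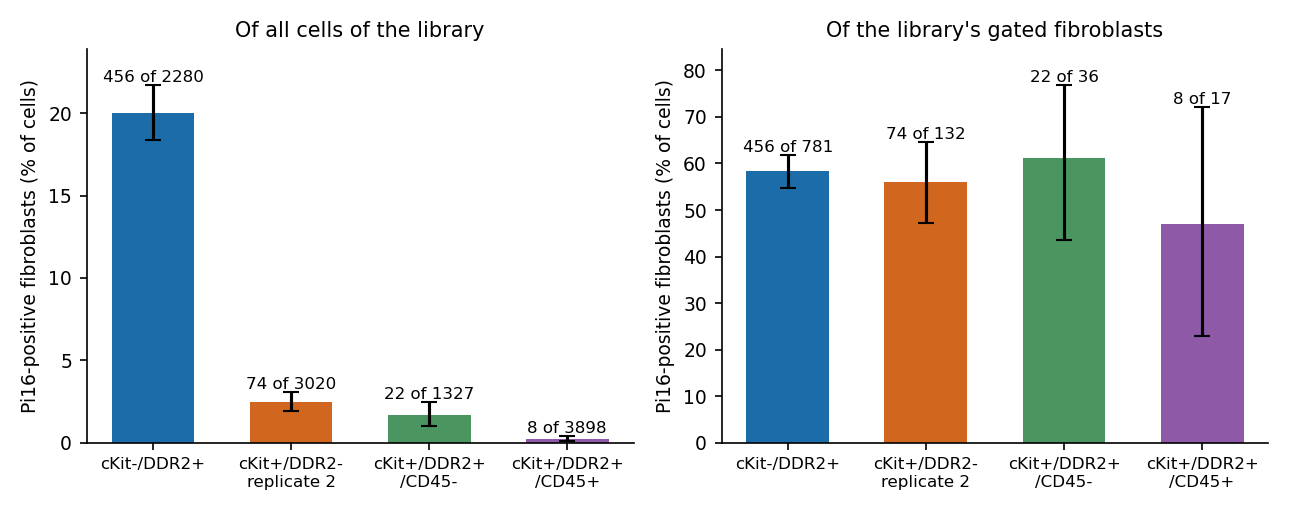
Pi16-positive fibroblasts as a percentage of all cells (left) and of gated fibroblasts (right) in the 4 libraries with more than 1 member; bars are the shares, lines the 95% exact binomial intervals, and the labels give the counts. The share of all cells runs from 0.205% to 20%, while the share of gated fibroblasts runs from 47.1% to 61.1% with overlapping intervals.

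The transcripts of the sort targets were measured as well. Ddr2 was at 183 CPM in members of the cKit-/DDR2+ library and at 207 CPM in members of the cKit+/DDR2- replicate 2 library, a log2 difference of 0.18 whose counting interval ran from -0.05 to 0.41. It was seen in 84.9% and 82.4% of members, against 6.79% and 3.01% of the Cdh5-positive cells. Kit gave 4 UMIs in the 456 members of the cKit- sort and 3 UMIs in the 74 members of this cKit+ sort. No Kit UMI was found in the members of either double-positive library. A Kit UMI was seen in 4.05% of the members of cKit+/DDR2- replicate 2, against 8.49% of its Cdh5-positive cells. At these counts the level of Kit was not distinguishable from that in the cKit- sort.

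The members differed from one another first in Pi16 itself, which the rule selects. Pi16 was at 1176 CPM (8092 UMIs) in the members of the cKit-/DDR2+ library, 622 CPM (549 UMIs) in cKit+/DDR2- replicate 2, 862 CPM in CD45- and 752 CPM in CD45+. Single cells of the cKit-/DDR2+ library held between 2 and 164 Pi16 UMIs, with a median of 11. The member nearest the threshold there had a deposited value of 1.01, and the nearest cell outside it 0.995. Of the 456 members of that library 254 had a value of at least 2, as had 28 of the 74 in cKit+/DDR2- replicate 2. Cells between 0 and 1 rested on a median of 1 Pi16 UMI in both libraries.

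The sums of other genes were also compared over classes of the Pi16 value. With a median of 1 Pi16 UMI between 0 and 1, graded levels and a mixture of cells cannot be told apart in these sums. In the cKit-/DDR2+ library, Cd248 stood at 21.7 CPM in cells with Pi16 = 0, 47.4 between 0 and 1, 127 between 1 and 2 and 306 at 2 or more. Mfap5 went from 394 to 598, 1101 and 1768 CPM over the same classes, and Ly6c1 from 17.2 to 47.9, 108 and 236 CPM. Apoe ran the other way, from 10359 to 5215, 3156 and 1666 CPM. In cKit+/DDR2- replicate 2 the ends of the scale had the same order, with Cd248 at 26.5 and 250 CPM and Apoe at 8121 and 1694 CPM in the Pi16 = 0 and Pi16 at least 2 classes. The middle classes there were uneven: Apoe was at 1429 CPM between 0 and 1, from 26 cells, below the 3172 CPM between 1 and 2. Tcf21, a general fibroblast gene outside the gate, differed little over the classes of the cKit-/DDR2+ library, at 484, 481, 511 and 534 CPM. Col1a1 and Pdgfra also differed little there, but the gate requires both in every class. In cKit+/DDR2- replicate 2 Tcf21 was less even, at 626, 334, 323 and 450 CPM.

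**Figure D2:**
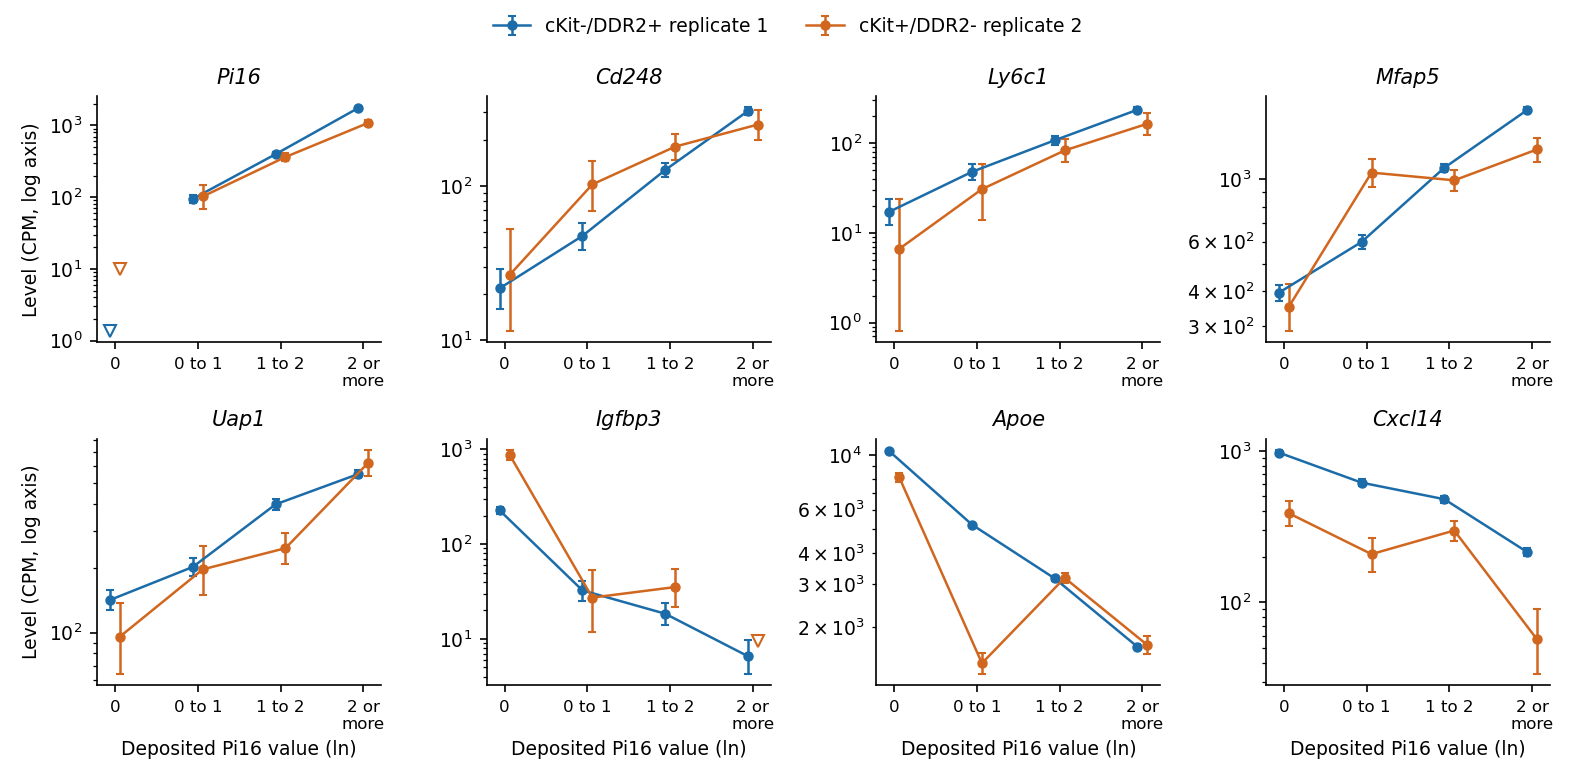
Level of 8 genes (CPM of summed UMIs, log axis) in gated fibroblasts by their deposited Pi16 value, in the 2 libraries with most members; lines are 95% Poisson intervals and open triangles mark, at 0 UMIs, the level that 3 counts would give. Cd248 goes from 21.7 to 306 CPM and Apoe declines from 10359 to 1666 CPM in the cKit-/DDR2+ library, and in cKit+/DDR2- replicate 2 the Apoe level is lowest in the sparse class between 0 and 1.

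Differences between Pi16-positive and Pi16 = 0 fibroblasts were tested on summed UMIs, as log2(CPM + 10), with limma and the library as a block. The libraries with at least 10 cells in both groups were cKit-/DDR2+ (456 against 182 cells) and cKit+/DDR2- replicate 2 (74 against 32). Of 3194 genes tested, 203 were higher in the Pi16-positive cells (6.36% of the genes) and 127 lower (3.98%) at a Benjamini-Hochberg adjusted p under 0.05. Of these 330 genes 324 had the same sign in both libraries. With 1 residual degree of freedom the fit took its spread wholly from the trend over all genes. Its standard errors (SE) and p-values therefore hold nothing of a gene's own spread between the 2 libraries. Apoe, for example, had an SE of 0.05 with log2 differences of -2.17 and -1.62. The p-values of abundant genes are very small and call shifts as slight as that of Gsn, at -0.07 on the log2 scale. A stricter reading asks for 2-fold in each library: 28 genes were higher by this measure (0.877% of those tested) and 15 lower (0.47%), and limma called 41 of these 43. Without the cells that held a UMI of an endothelial, macrophage, mural or mesothelial marker limma called 31 genes higher and 16 lower, while 31 and 17 were past 2-fold in both libraries. From means of the deposited log values it called 260 higher and 91 lower.

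The strictest reading adds the 2 double-positive libraries, with 22 against 6 and 8 against 5 cells. In this limma fit over 4 libraries 7 of 3294 genes were higher (0.213%) and 2 lower (0.0607%), and all 9 were among those called with 2 libraries. Cd248 stood at 230 CPM in Pi16-positive against 21.7 CPM in Pi16 = 0 cells of the cKit-/DDR2+ library, 205 against 26.5 in cKit+/DDR2- replicate 2, 189 against 14.4 in CD45- and 184 against 0 in CD45+. Its mean log2 difference over 4 libraries was 3.20 ± 0.33 (SE), with a limma adjusted p of 0.0165. Ly6c1, a small surface protein of the Ly6 family, stood at 181 against 17.2, 112 against 6.62, 148 against 14.4 and 159 against 0 CPM in the same order (3.12 ± 0.36, adjusted p 0.0213). No library overlapped: every Pi16-positive value of these genes lay above every Pi16 = 0 value. Outside the cKit-/DDR2+ library the Pi16 = 0 values rest on 0 to 8 UMIs of Cd248 and 0 to 2 of Ly6c1.

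Uap1 makes the sugar nucleotide UDP-N-acetylglucosamine, a building block of hyaluronan. It stood at 487 against 142 CPM (cKit-/DDR2+), 383 against 96.0 (cKit+/DDR2- replicate 2), 265 against 28.8 (CD45-) and 292 against 84.3 (CD45+), with a mean of 2.03 ± 0.23 and an adjusted p of 0.0213 in the 4-library fit. Ackr3, a scavenging receptor for the chemokine Cxcl12, gave 438 against 109, 318 against 92.7, 325 against 86.4 and 393 against 84.3 CPM (1.87 ± 0.16, adjusted p 0.00641). Cd34, a surface sialomucin of stromal and endothelial cells, was the steadiest of the 9, with log2 differences between 1.08 and 1.14 in the 4 libraries. Axl, a receptor tyrosine kinase, and S100a10, a partner of annexin A2, had means of 1.14 ± 0.14 and 1.15 ± 0.15.

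Igfbp3, which binds insulin-like growth factors, was the gene with the largest difference among those tested. It stood at 11.6 CPM in Pi16-positive against 227 CPM in Pi16 = 0 cells of the cKit-/DDR2+ library, 22.6 against 877 in cKit+/DDR2- replicate 2, 9.47 against 807 in CD45- and 0 against 112 in CD45+. The mean was -4.31 ± 0.36 with an adjusted p of 0.00641. Few cells carried it: 19.8% of the Pi16 = 0 cells of the cKit-/DDR2+ library had an Igfbp3 UMI and the top 10% of cells held 95.2% of its UMIs, so the difference lies with a minority of the comparison cells. Apoe, a lipid carrier, was seen in 93.9% of members and 98.9% of Pi16 = 0 cells of that library. Its levels were 2299 against 10359 CPM, 2643 against 8121, 2519 against 8282 and 3424 against 12868, a mean of -1.85 ± 0.14 (adjusted p 0.00641).

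Leaving the CD45- library out of the 4-library fit left 0 genes called by limma, with 179 at an unadjusted p under 0.05, and adjusted p for the 9 genes ran from 0.0666 to 0.176 there. For Apoe the largest value over the alternatives was 0.204, from a variance prior fitted robustly. Without the CD45+ library 18 genes were higher and 6 lower.

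**Figure D3:**
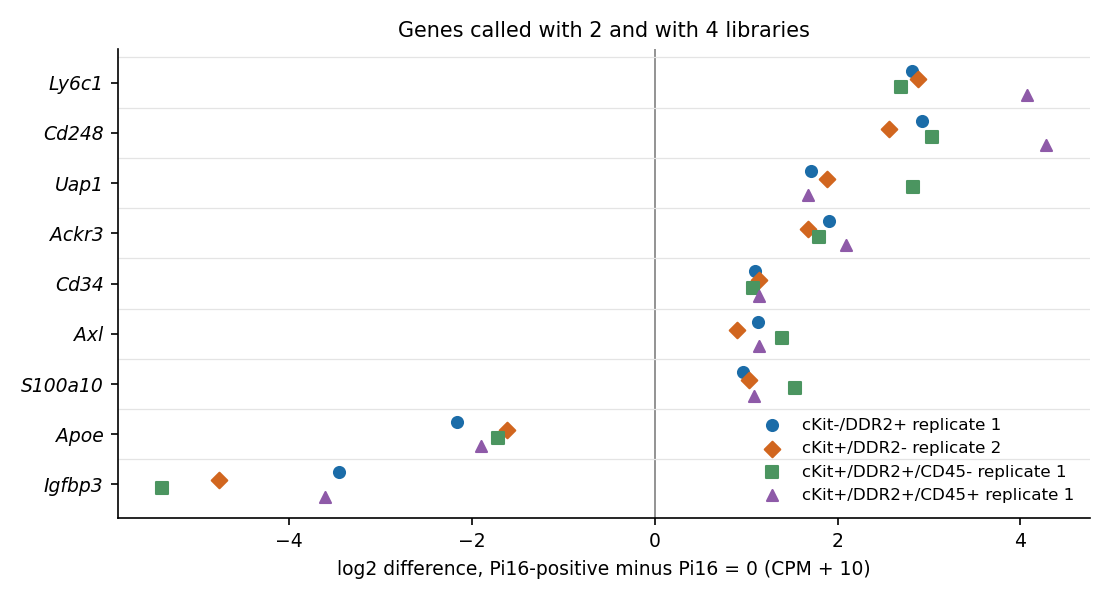
Log2 difference (CPM + 10) between Pi16-positive and Pi16 = 0 fibroblasts in each of 4 libraries for the 9 genes called with 2 and with 4 libraries; each symbol is 1 library. The value nearest 0 is 0.90 among the 7 higher genes (Axl) and -1.62 among the 2 lower ones (Apoe).

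The genes known from Pi16-positive fibroblasts of other organs were higher almost throughout. Like the other lists here, this one was written with earlier results of these data known. It also includes the markers Cd248, Sema3c, Mfap5 and Dpp4, so its counts are a description and not independent support. Of 42 such genes beyond Pi16, 26 were abundant enough to be tested, 24 were higher and 0 lower, and the median log2 difference was 1.04, against 0.05 over all genes tested. The 16 others did not reach the mean of 50 CPM, Dpp4 among them. Dpp4 stood at 22.1 against 3.16 CPM in cKit-/DDR2+ (152 against 7 UMIs) and at 29.4 against 0 CPM in cKit+/DDR2- replicate 2 (26 against 0 UMIs). The 2 members tested and not called were Il33, an alarmin, and Creb5, a transcription factor. Ly6a, the stem cell antigen Sca-1, stood at 713 against 112 CPM in the cKit-/DDR2+ library and 511 against 82.8 in cKit+/DDR2- replicate 2 (2.53 ± 0.15). Igfbp6, which prefers IGF-II, gave 806 against 283 and 500.5 against 43.0 CPM (2.37 ± 0.15, adjusted p 0.563 with the robust prior).

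Mfap5 was 1484 against 394 CPM and 1095 against 351 CPM in those libraries (1.75 ± 0.12), yet 1212 against 1599 CPM in the CD45- library, where the Pi16 = 0 value comes from 6 cells. Sema3c was 106 against 14 and 99.6 against 29.8 CPM (1.87 ± 0.25), and 0 against 1 UMI in the CD45+ library. Both were called with 2 libraries and not with 4 (adjusted p 0.57 for Mfap5 and 0.67 for Sema3c).

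**Figure D4:**
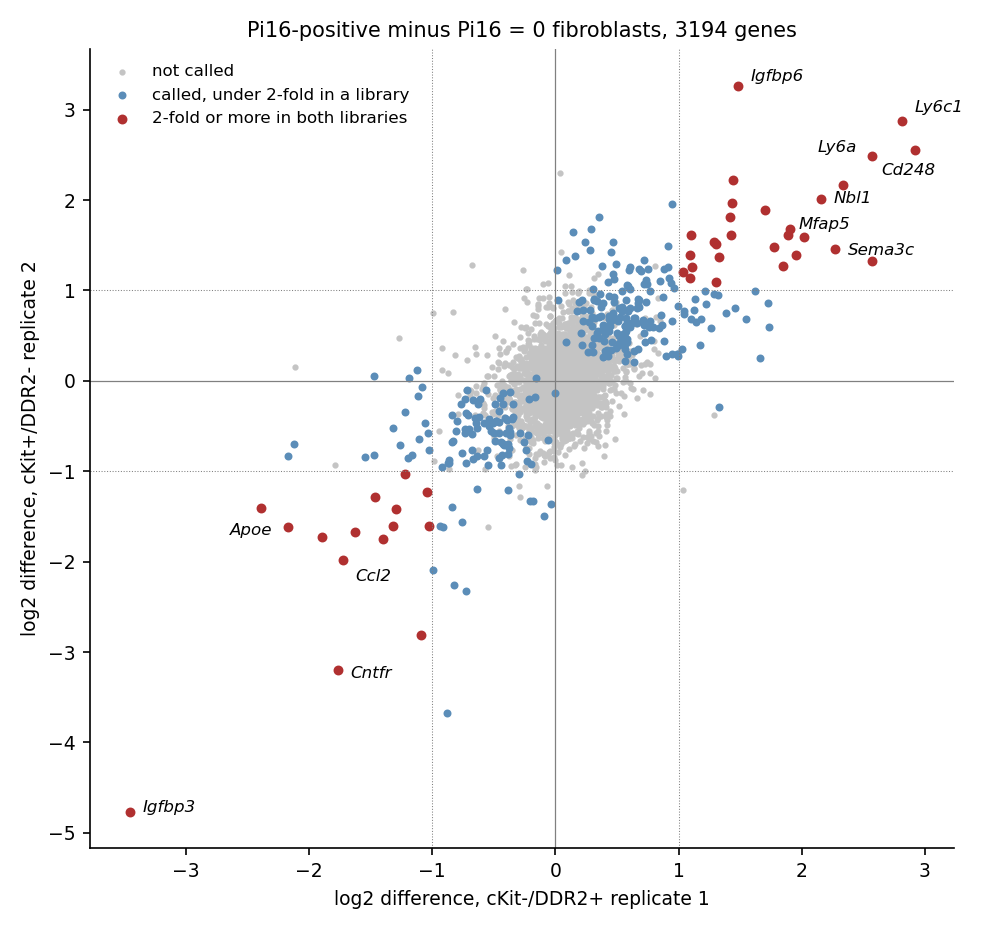
Log2 difference between Pi16-positive and Pi16 = 0 fibroblasts in the cKit-/DDR2+ library (horizontal) and in cKit+/DDR2- replicate 2 (vertical) for the 3194 genes tested; dotted lines mark 2-fold. The 28 genes in the upper right and 15 in the lower left corner (red) are past 2-fold in both, and Igfbp3 lies farthest from the centre.

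The matrix lists are read against the 6.36% higher and 3.98% lower of all genes tested. Of 16 elastic fibre genes tested 8 were higher and 2 lower, with a median of 0.27. The higher ones were led by Mfap5, Mfap4 and Fbln2, a fibulin that links microfibrils to other matrix (1161 against 457 and 985 against 374 CPM, 1.35 ± 0.12), followed by Fbn1, the microfibril backbone (580 against 226 and 481 against 245 CPM, 1.13 ± 0.14). Eln, the elastin gene, was tested and not called, and Fbln1 and Fbln5 were lower. Mfap4 went the other way in both double-positive libraries, with 22.1 against 158 CPM in CD45- and 83.5 against 309 CPM in CD45+.

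Fibrillar collagens and their binding partners had a median of 0.26, close to the 0.27 of the elastic fibre genes. Of 19 genes of this group 5 were higher and 0 lower, and Fn1, Col14a1 and Pcolce2 led. Fn1 (fibronectin) stood at 108 against 40.7 and 170 against 89.4 CPM, and Col14a1, a collagen on the surface of fibrils, at 134 against 53.8 and 242 against 182 CPM. Col1a2 was called at 0.26 ± 0.09, from 1823 against 1719 and 1487 against 1102 CPM. Col3a1 and the collagen V and VI chains tested were not called. Basement membrane genes gave 4 higher and 0 lower of 13, led by the laminin chain Lamb2 at 0.67.

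Of 14 genes of hyaluronan synthesis and UDP-sugar supply only 4 were abundant enough to be tested, and these 4 were higher. The hyaluronan synthases Has1 and Has2 were among the 10 not tested. Besides Uap1 these were Gfpt2, the entry enzyme of the hexosamine pathway (416 against 119 and 309 against 166 CPM, 1.29 ± 0.15), Ugdh, which makes UDP-glucuronic acid (253 against 73.2 and 179 against 149 CPM, 0.96 ± 0.16), and Ugp2, which makes UDP-glucose (264 against 158 and 217 against 132 CPM, 0.69 ± 0.16). Ugdh differed between the libraries, at 1.66 and 0.25, and its adjusted p was 0.056 with the robust prior. Tnfaip6, which binds hyaluronan, was 2-fold higher in both libraries (83.8 against 33.4 and 84.9 against 29.8 CPM, 1.18 ± 0.23), and 41.0 against 43.2 CPM in CD45- and 50.1 against 112 CPM in CD45+.

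Small proteoglycans and glycoproteins were split, with 7 higher and 6 lower of 20 and a median of 0.12. Aspn (asporin) was higher at 548 against 252 and 407 against 149 CPM (1.24 ± 0.14), and Vcan (versican) at 330 against 132 and 312 against 205 CPM (0.92 ± 0.15). The lower ones included Svep1, a large adhesion protein (66.8 against 162 and 74.7 against 139 CPM, -0.99 ± 0.17). Proteases and inhibitors gave 5 higher and 3 lower of 17. Timp2, a metalloprotease inhibitor, was higher (1338 against 841 and 1226 against 695 CPM, 0.74 ± 0.10), while its relative Timp3 (396 against 636 and 362 against 669 CPM, -0.77 ± 0.13) and the protease Adamts1 (282 against 501 and 298 against 444 CPM, -0.68 ± 0.14) were lower.

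**Figure D5:**
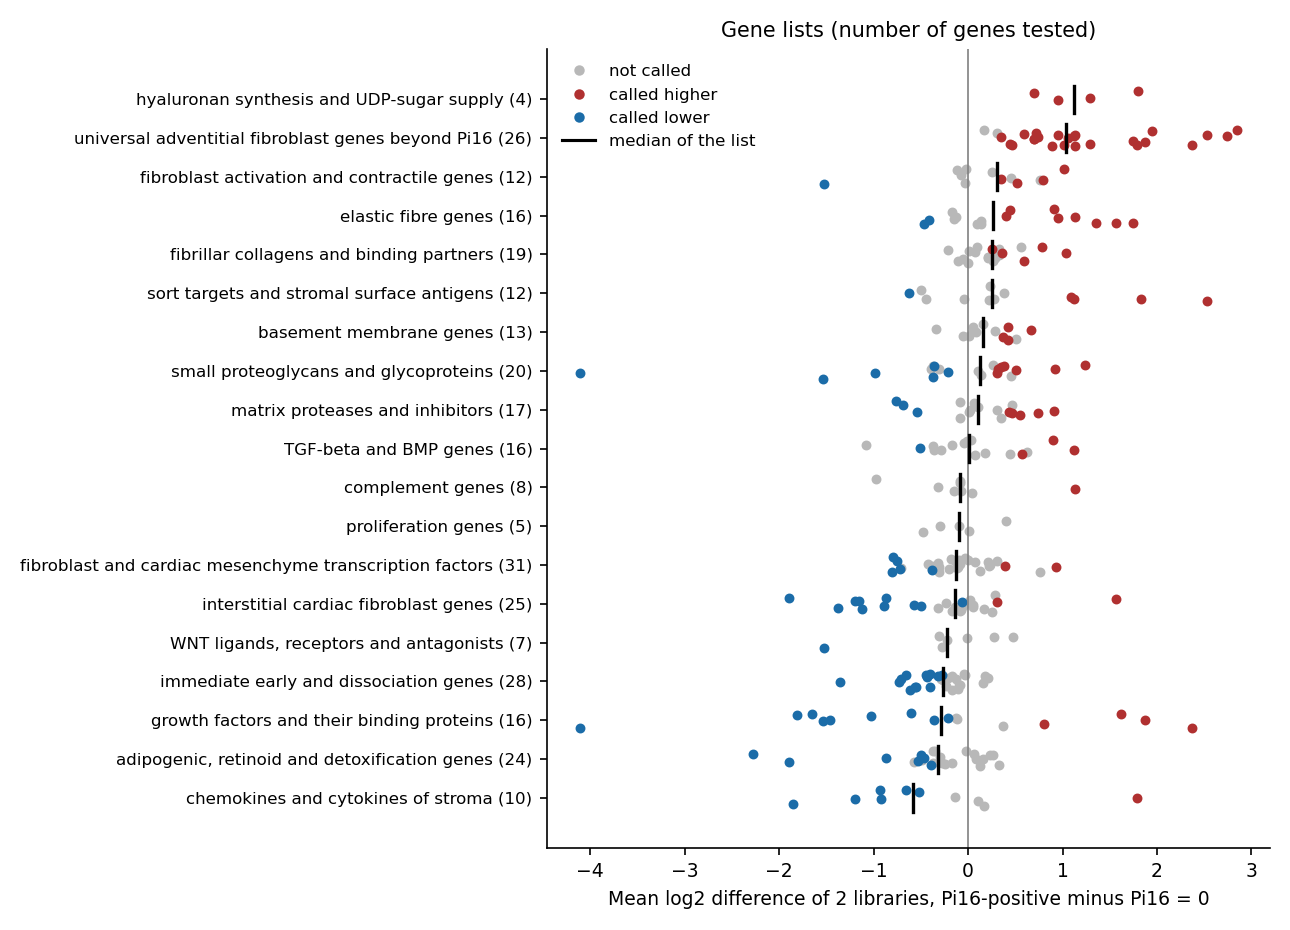
Mean log2 difference of 2 libraries between Pi16-positive and Pi16 = 0 fibroblasts for every tested gene of 19 lists, ordered by the list's median (black line); red and blue points were called higher and lower by limma, and the number tested stands in brackets. The lists of hyaluronan synthesis (4 of 14 genes tested) and of adventitial fibroblast genes have medians of 1.12 and 1.04, and the stromal chemokines the lowest at -0.59.

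The lists of this and the next paragraphs are also read against the 6.36% higher and 3.98% lower of all genes tested. In the 2-library fit, genes of signals secreted to other cells were mostly called lower in the Pi16-positive cells. Of 10 stromal chemokine and cytokine genes 6 were lower and 1, the receptor Ackr3, higher, with a median of -0.59. Ccl2, which attracts monocytes, stood at 74.4 against 269 and 84.9 against 364 CPM (-1.85 ± 0.16), but 25.3 against 0 CPM in the CD45- library and 83.5 against 28.1 in CD45+. It was seen in similar shares of cells, 15.4% against 15.9% and 17.6% against 12.5%, and the carriers among the Pi16 = 0 cells held more of its UMIs. These shares are at full depth, where members were deeper, and were not compared at equal depth. Cxcl14 gave 327 against 974 and 212 against 387 CPM (-1.19 ± 0.14), and Cxcl1, which attracts neutrophils, 383 against 970 and 502 against 725 CPM (-0.92 ± 0.12). Cxcl14 went the other way in the CD45- library, with a log2 difference of 3.39 from 22 against 6 cells. Ccl11, called lower here, had a mean log2 difference of 0.062 with 4 libraries. Cxcl1 stayed lower there, at -0.56.

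Growth factors and their binding proteins gave 9 lower and 4 higher of 16, with a median of -0.28. Beside Igfbp3 the lower ones included the paired heparin-binding factors Mdk (midkine, 13.4 against 61.9 and 29.4 against 116 CPM, -1.65 ± 0.28) and Ptn (pleiotrophin, 41.1 against 117 and 48.7 against 169 CPM, -1.46 ± 0.17). Both were lower in the double-positive libraries too, with Ptn at 50.5 against 1296 CPM in CD45- and 16.7 against 225 in CD45+. Vegfd, a lymphatic growth factor, stood at 13.4 against 76.8 and 9.06 against 53.0 CPM (-1.81 ± 0.46). The 4 higher ones were Igfbp6, Sema3c and the netrins Ntn4 (94.3 against 28.9 and 118 against 26.5 CPM, 1.61 ± 0.22) and Ntn1.

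Genes that mark interstitial cardiac fibroblasts gave 10 lower and 2 higher of 25, with a median of -0.14. The 2 higher were Mfap4 and Lum, and 13 were not called, Tcf21 and Col15a1 among them. Gsn, with its slight shift, counted as lower, and so did Hsd11b1, which was at 0.12 in cKit+/DDR2- replicate 2. The lower ones included the monooxygenase Fmo2 (130.5 against 377 and 98.5 against 255 CPM, -1.38 ± 0.16), the enkephalin precursor Penk (137 against 331 and 38.5 against 89.4 CPM, -1.13 ± 0.16) and the lipase Lpl (1168 against 2526 and 1234 against 1930 CPM, -0.87 ± 0.09). Adipogenic, retinoid and detoxification genes gave 7 lower and 0 higher of 24, with a median of -0.32. Apod, a small lipid carrier, stood at 106 against 203 and 31.7 against 523 CPM (-2.28 ± 0.16), and its adjusted p was 0.678 with the robust prior.

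Stress-responsive early genes also leaned low, with 13 lower and 0 higher of 28 and a median of -0.27. Junb, an AP-1 subunit, stood at 3608 against 5603 and 3257 against 5787 CPM (-0.73 ± 0.05), and Gadd45b, a growth arrest gene, at 120 against 307 and 282 against 771 CPM (-1.36 ± 0.14). These genes respond to tissue digestion, and the groups also differed in depth. Their part in the result was not tested. Junb was 2781 against 6539 CPM in the CD45- library and 4101 against 2500 CPM in CD45+, where the 5 Pi16 = 0 cells had a median of 2888 UMIs.

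The remaining lists had few calls and are read against the 6.36% higher and 3.98% lower of all genes tested. Among 31 fibroblast transcription factors 2 were higher, a share near that of all genes, and 5 were lower. Klf2 was higher (549 against 358 and 695 against 285 CPM, 0.93 ± 0.13) and Klf4 with it. The lower ones included Cebpb, a factor of inflammation and fat cell development (395 against 820 and 412 against 619 CPM, -0.80 ± 0.13), and Tbx20, a cardiac T-box factor (238 against 272 and 259 against 665 CPM, -0.76 ± 0.14). Tbx20 was uneven between the libraries. Its limma adjusted p was 0.123 without the mean-variance trend and 0.641 with 4 libraries. Activation and contractile genes gave 4 higher and 1 lower of 12, led by the tropomyosin Tpm1 (162 against 79.6 and 130 against 56.3 CPM, 1.01 ± 0.17), while Postn, a marker of activated fibroblasts, was not called. Tpm1 stayed higher with 4 libraries, at 0.77. Of the other higher ones, Ctgf was at -0.29 in cKit+/DDR2- replicate 2, Cyr61 at -0.18 with 4 libraries and Col8a1 at -1.84 in the CD45- library. In the TGF-beta and BMP list 3 of 16 were higher, among them the follistatin relative Fstl1 (1080 against 435 and 924 against 470 CPM, 1.13 ± 0.12), and Smad7, an inhibitor of the pathway, was lower. A single call among 8 complement genes is no result about that list; the gene was Cd55, a shield against complement (248 against 83.6 and 209 against 116 CPM, 1.13 ± 0.16). The same holds for the 1 call among 7 WNT genes, the antagonist Sfrp2. Of 5 proliferation genes limma called 0, with 2 at an unadjusted p under 0.05. Surface antigens gave 4 higher and 1 lower of 12, led by Ly6a, Cd9, a tetraspanin (720 against 258 and 409 against 79.5 CPM, 1.84 ± 0.15), and Cd34, while Ddr2 was not called (0.38 ± 0.16).

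The 2 double-positive libraries were not in this fit and give the direction of the same genes at low depth. Of the 28 genes at 2-fold or more in both tested libraries, 22 were higher in the CD45- library and 20 in the CD45+ library, where 55.8% and 54.2% of all tested genes were higher. Of the 15 genes at 2-fold lower, 9 and 7 were lower, against 44.1% and 45.4% of all tested genes. A gene with no UMI in either group counted as not keeping its direction, as Cytl1 did in both libraries. Other genes turned, among them Ccl2, which was higher in the members of both libraries. The smaller proportion among the lower genes thus mixes genes without a UMI with genes that turned. The difference between these proportions was not tested.

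The promoters of 4 genes on which these results turn are shown as reference sequence, from RefSeq on GRCm38.p6. Each is the 150 bases before the annotated start, 5′ to 3′ on the gene's own strand. Pi16 defines the cells, Uap1 and Ackr3 were higher and Igfbp3 was lower in all 4 libraries. Capitals mark 3 core promoter motifs on either strand: the TATA box, read as TATAAA; the CAAT box, read as CCAAT; and the GC box, read as GGGCGG. Pi16 lies on chr17:29318732-29318881 (plus strand), Uap1 on chr1:170174965-170175114 (minus), Ackr3 on chr1:90203830-90203979 (plus) and Igfbp3 on chr11:7213924-7214073 (minus).
Pi16: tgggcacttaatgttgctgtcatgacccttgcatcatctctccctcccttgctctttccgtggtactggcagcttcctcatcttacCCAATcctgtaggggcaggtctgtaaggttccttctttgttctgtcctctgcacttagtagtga
Uap1: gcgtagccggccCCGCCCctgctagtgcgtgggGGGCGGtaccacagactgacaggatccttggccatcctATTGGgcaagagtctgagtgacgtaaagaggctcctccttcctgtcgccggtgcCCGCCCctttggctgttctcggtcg
Ackr3: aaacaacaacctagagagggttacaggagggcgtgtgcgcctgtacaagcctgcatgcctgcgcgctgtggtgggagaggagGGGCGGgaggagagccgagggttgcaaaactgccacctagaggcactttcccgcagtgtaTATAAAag
Igfbp3: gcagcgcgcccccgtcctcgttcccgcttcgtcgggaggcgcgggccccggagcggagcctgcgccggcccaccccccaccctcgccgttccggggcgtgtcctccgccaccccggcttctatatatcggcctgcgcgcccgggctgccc

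The 4 stretches had 1, 4, 2 and 0 such matches. In the 250 bases before the start, GGGCGG was present on either strand in 12 of the 19 genes at 2-fold higher that have an entry (63.2%), in 4 of the 11 at 2-fold lower (36.4%) and in 32.9% of all 27025 promoters. TATAAA was present in 5 of 19 (26.3%), 3 of 11 (27.3%) and 13%, and CCAAT in 8 of 19 (42.1%), 3 of 11 (27.3%) and 34.5%, in the same order. The 27025 promoters include genes that were not tested here, and the shares among the 3194 genes tested were not measured. Cd248, Ly6a and Mfap5 are among the higher genes without an entry. A match is a description of letters, not of a bound site.

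The members of the 2 libraries that hold most of them were set side by side without a test, since each sort has 1 library with enough of them. Of 3214 genes at 50 CPM or more in either, 32 stood 2-fold or more above (0.996%) and 38 as far below (1.18%) in cKit+/DDR2- replicate 2, relative to the cKit-/DDR2+ library. The same shift was seen in the Pi16 = 0 cells for 16 of the 32 and 23 of the 38, where 2.43% and 2.98% of the 2883 genes measured in those cells were 2-fold higher and lower. Cd248 (205 against 230 CPM) and Sema3c (99.6 against 106) had counting intervals of the ratio that include no difference, while Pi16 was at 622 against 1176 CPM and Mfap5 at 1095 against 1484 CPM.

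The 10 genes highest by fold were Ccl4, Cxcl2, C1qa, Cd74, Hspa1b, Lars2, Hspa1a, Cdkn1a, Tmem176a and Tmem176b. Lars2, a mitochondrial leucyl-tRNA synthetase, stood at 1881 CPM against 230, and at 2006 against 274 CPM in the Pi16 = 0 cells. Cdkn1a, a cell cycle inhibitor, stood at 161 against 37.5 CPM, and at 116 against 53.8 CPM in the Pi16 = 0 cells. Hspa1b stood at 376 CPM against 41.1 and Hspa1a at 811 against 124, both chaperones induced by stress, and they were also unequal in the Pi16 = 0 cells (675 against 28.9 and 957 against 158 CPM). Ccl4 (121 against 0.291 CPM), Cxcl2 (77.0 against 0.291), C1qa (52.1 against 0.291) and Cd74 (142 against 3.92) are genes of macrophages and antigen-presenting cells. C1qa is also 1 of 8 macrophage markers. The other 7 were all detected in cKit+/DDR2- replicate 2 and summed to 105 CPM in members, 86.1 CPM in the Pi16 = 0 cells and 3859 CPM in the cells outside the gate. In the cKit-/DDR2+ library 5 of the 7 were detected and summed to 3.92 CPM in members, with C1qb and Adgre1 at 0, and to 374 CPM outside the gate. Their part in the difference was not tested.

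The lower side held Wisp2, a matricellular protein (6.79 against 72.8 CPM), Myoc, the myocilin gene (21.5 against 177), Efemp1, a fibulin (49.8 against 191), Penk (38.5 against 137), the chemokine Ccl11 (43.0 against 140) and Fabp4, a fatty acid carrier abundant in endothelium (37.4 against 144). Myoc was unequal in members and less so in Pi16 = 0 cells (62.9 against 81.4 CPM). Fabp4 is 1 of 9 endothelial markers, and the other 8 summed to 45.3 CPM in members of cKit+/DDR2- replicate 2 and 62.9 CPM in those of the cKit-/DDR2+ library, against 3248 and 6751 CPM in the cells outside the gate. The 5 erythroid markers, haemoglobins among them, summed to 195 CPM in members of the cKit-/DDR2+ library and to 0 UMIs in those of cKit+/DDR2- replicate 2.

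Markers of other cell types were also summed in members and in Pi16 = 0 cells of the same library. Endothelial markers summed to 207 against 295 CPM (cKit-/DDR2+) and 82.7 against 99.3 CPM (cKit+/DDR2- replicate 2), with Cdh5 at 0 by the rule. Without Fabp4 the sums were 62.9 against 64.2 and 45.3 against 46.4 CPM. Ly6c1 was seen in 94.9% of the Cdh5-positive cells of the cKit-/DDR2+ library and in 57.7% of its members; the part of endothelial RNA in its level was not tested. Smooth muscle markers summed to 53.8 against 13.1 and 29.4 against 23.2 CPM, with Cnn1 at 0 in both groups of both libraries. Mesothelial markers were near the floor, at 0.726 against 3.62 and 1.13 against 0 CPM.

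Within the Pi16-positive cells the most uneven transcripts were measured after thinning to 3000 UMIs, as the variance over the mean of the counts. In cKit+/DDR2- replicate 2 these were Ccl4 (37.2, seen in 5.48% of cells), the calcification inhibitor Mgp (36.0, seen in 95.9%), Malat1, Gsn, Cd74 (20.1, seen in 19.2%) and Cxcl14 (18.0, seen in 9.59%). The median member there held 83.5 Mgp UMIs per 10000, and 1 cell in 10 held over 254. Cxcl14 was carried by a minority in the cKit-/DDR2+ library too, with a UMI in 17.3% of thinned members and 31.7% of thinned Pi16 = 0 cells.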

How the data were processed

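Per the submitters' processing notes, reads were processed with Cell Ranger and Seurat 4.0.4 on mm10. The deposited values are the natural log of 1 plus UMIs per 10000 and cell; this scale was read from the values, since each cell summed to 10000 after back-transformation. UMIs were recovered by dividing by the smallest value of each cell, and 100% were whole within 0.01. Genes that a table lacks count as 0. UMIs were summed per library and group (Python 3.11.15), expressed as CPM, and tested as log2(CPM + 10) with limma 3.58.1 in R 4.3.3, library as block, for genes with a mean of at least 50 CPM and libraries with at least 10 cells in both groups. A count model was not used because the deposited unit is not counts. Totals per library ran from 4047326 to 44847778 UMIs. The 3 libraries with fewer such cells did not enter this test. Intervals (95%, exact binomial or Poisson) cover counting error only, and 3 counts are the floor at 0. The sources do not say whether libraries came from separate animals. The 2 libraries of the main fit differed in Xist and Ddx3y, so their fibroblasts came from different animals, of unknown number. In that fit p-values rest on the trend over all genes and not on a gene's spread between the libraries. No p-value measures the spread between animals within a sort. No doublet caller was run; cells with Cdh5 or Ptprc were left out by the rule, and cells above the 95th percentile of UMIs were left out as an alternative. The variance prior, the 4-library fits with 1 library left out and the removal of shared barcodes were alternatives chosen after seeing the data. The limma script was tested on simulated data.

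Members and gene lists were chosen with earlier results of these data known. Named genes were the markers, gate genes, sort targets, the 15 called genes with the largest difference each way, up to 5 called genes of each list and, between libraries, the 10 largest each way; mitochondrial, ribosomal, haemoglobin, sex-linked or predicted genes did not enter ranked lists. Axl, S100a10 and Tnfaip6 were named after their values were seen.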

Additional observations from a re-analysis of the deposited data

Results flagged for a closer look

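A few genes called with 2 libraries were at least 2-fold the other way in a double-positive library, with 20 or more UMIs in the higher group and a counting interval of the ratio that excluded 0; whether the libraries differ was not tested. In the CD45- library, with 22 against 6 cells, the log2 difference was 1.01 for Adamts1, -1.84 for Col8a1, a collagen of activated fibroblasts, and 3.39 for Cxcl14. In the CD45+ library, with 8 against 5 cells, it was 4.34 for Igfbp5, a binding protein of insulin-like growth factors, and 5.72 for Socs3, a brake on cytokine signalling. Socs3 stood at 518 against 0 CPM there and at 421 against 633 CPM in the cKit-/DDR2+ library. In CD45+ members Igfbp5 came from 12.5% of the 8 cells, and in CD45- members Cxcl14 came from 9.09% of the 22 cells.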

How the results depend on the processing

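The 2-library fit gave 203 genes higher and 127 lower, and 28 and 15 genes at 2-fold. The cause of the following changes was not tested. The number of genes called was 7 and 2 with at least 5 cells a group (4 libraries), 0 and 0 without the CD45- library and 18 and 6 without CD45+ in that fit, 453 and 245 with libraries weighted by cells, 116 and 58 with Pi16 above 0, 127 and 70 without requiring Pdgfra, 31 and 16 without cells holding other markers, 111 and 60 without the mean-variance trend, and 104 higher with the median difference set to 0. With no replicate block (library) it was 5 and 2. The 2-fold genes numbered 13 and 5 at a pseudocount of 50 CPM, 23 lower at 1 CPM, 9 lower at 100 CPM, 9 and 6 with at least 5 cells, 13 and 7 without CD45- and 14 and 8 without CD45+ there, 7 and 1 from means of deposited values, 47 and 34 at Pi16 of 2 or more, and 54 to 82 higher and 37 to 43 lower in single libraries, where no test was possible.

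Directions turned with at least 5 cells for Adamts1 (0.062), Ccl11 (0.062), Col14a1 (-0.11), Ctgf (-0.42), Cyr61 (-0.18), Igfbp5 (0.41), Mfap4 (-0.26), Socs3 (0.98) and Sparc (-0.046). In that fit without CD45- they turned for Col14a1 (-0.36), Cyr61 (-0.049), Id1 (-0.000213), Igfbp5 (0.42) and Socs3 (1.44), and without CD45+ for Col8a1 (-0.086), Ctgf (-0.83) and Cxcl14 (0.33). Leaving out a library gave -0.29 to 1.33 for Ctgf and -1.12 to 0.12 for Hsd11b1, which turned without cKit-/DDR2+, Ccl11 (0.47) in the deeper cells alone and Inmt (0.072) without cells holding other markers.

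At Pi16 of 2 or more, members were 32.5%, 21.2%, 30.6% and 17.6% of gated fibroblasts and 11.1%, 0.927%, 0.829% and 0.077% of all cells (cKit-/DDR2+, cKit+/DDR2- replicate 2, CD45-, CD45+). At Pi16 above 0 they were 76.7%, 75.8% and 83.3% of gated fibroblasts in the first 3 and 26.3% and 3.31% of all cells in the first 2, where thinning gave 14.3% and 1.5%. Between the members of the 2 libraries, 18 and 21 genes passed at 100 CPM and 99 were lower at Pi16 of 2 or more. Cells per group limit the double-positive libraries.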
